A study of Mus musculus with 8 samples.

Results

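Astrocytes build their internal scaffold from intermediate filaments, and 7 genes of that scaffold were followed here, chosen by name: the filament proteins Gfap, Vim, Nes and Synm, the linker Plec, and the nuclear lamins Lmna and Lmnb1. All 7 were found by identifier among the 39179 genes counted, and all 7 passed the filter on low counts. The data were 8 RNA-seq libraries of spinal cord astrocytes, sorted for the Aldh1l1-GFP reporter after papain dissociation, from mice of a mixed Swiss-Webster strain aged 12 to 14 days. The 4 control libraries (S1, S2, S6 and S7) came from cre-negative animals that the labels call wild-type. The 4 conditional knockout (cKO) libraries (S3, S4, S5 and S8) came from animals with both Kir4.1 alleles floxed and Aldh1l1-cre. Both groups carried Aldh1l1-GFP, so the reporter used for sorting and the cre share the Aldh1l1 regulatory elements. Kir4.1, encoded by Kcnj10, is the main inwardly rectifying potassium channel of astrocytes.

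Intermediate filaments are rope-like polymers that give a cell mechanical strength. Vimentin and nestin mark immature astrocytes and radial glia, and GFAP largely takes the place of vimentin as astrocytes mature. Reactive astrocytes are known for raised GFAP, often with vimentin and nestin returning. Nestin and synemin cannot form filaments alone and co-assemble with vimentin or GFAP, plectin ties filaments to membranes, actin and the nucleus, and lamins form the meshwork under the nuclear envelope.

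Gene reads numbered 13892736 to 22050884 in the controls and 16521770 to 25065686 in cKO, with mitochondrial rRNA taking 23.8% to 32.6% of them. The targeted gene, Kcnj10, averaged 1820.1 CPM ± 468 over the controls and 34 CPM ± 4.64 over the cKO libraries (SD, n = 4 each), with the highest cKO library at 37.6 and the lowest control at 1181.5 CPM. CPM are read counts scaled to a common library size, here adjusted by TMM, a composition scaling. Values by library are listed in the order S1, S2, S6, S7 (controls) and S3, S4, S5, S8 (cKO). All 10 astrocyte markers examined had counts in all 8 libraries, and their summed level was 16463.5 to 24655.1 CPM in controls and 19325.7 to 23853.6 CPM in cKO; 2 of them, Aldh1l1 and Aqp4, passed the threshold as higher in cKO. Oligodendrocyte markers summed to 975 to 2881.2 CPM, so RNA of that lineage was in every library. In bulk libraries, fewer cells of a type and less RNA per cell cannot be told apart.

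The promoter windows of Gfap and Vim are shown because the comparison turns on whether these 2 genes moved together. The set of RefSeq promoter windows used here (GRCm38.p6) has an entry for 5 of the 7 genes, Gfap, Vim, Nes, Synm and Lmna. Each window runs from 250 bases before to 50 bases after the annotated start, on the gene's strand, chr11:102897151-102897450 (minus) for Gfap and chr2:13574061-13574360 (plus) for Vim. Capitals mark matches to any of 6 motifs searched on both strands: the TATA box TATAAA, the CCAAT box, the GC box GGGCGG, the STAT consensus TTCNNNGAA, the AP-1 consensus TGANTCA and the E-box CACGTG.
Gfap: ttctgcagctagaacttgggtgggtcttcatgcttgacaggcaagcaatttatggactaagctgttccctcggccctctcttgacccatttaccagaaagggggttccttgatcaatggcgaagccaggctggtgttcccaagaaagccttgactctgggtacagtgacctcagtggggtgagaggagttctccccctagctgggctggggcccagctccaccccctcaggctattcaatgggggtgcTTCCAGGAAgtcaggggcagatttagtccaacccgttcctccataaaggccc
Vim: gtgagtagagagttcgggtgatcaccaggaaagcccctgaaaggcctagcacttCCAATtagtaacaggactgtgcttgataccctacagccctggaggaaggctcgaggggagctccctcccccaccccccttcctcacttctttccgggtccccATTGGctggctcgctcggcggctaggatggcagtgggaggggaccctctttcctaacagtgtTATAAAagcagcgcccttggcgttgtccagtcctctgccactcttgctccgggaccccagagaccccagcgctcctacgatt
The Vim window held TATAAA beginning at position -32 from the start and 2 CCAAT matches, at -196 and, on the other strand as ATTGG, at -94. The Gfap window held 1 match, to the STAT consensus, beginning at position -2. TATAAA is present in 13.6%, CCAAT in 37.4% and the STAT consensus in 8.3% of the 32851 RefSeq windows of this length. The marked motifs of the 2 windows had no kind in common, and a match is a string of letters, not a shown binding site.

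Gfap and Vim are the 2 filament proteins of the same class that astrocytes polymerise together. Vim had roughly doubled mean counts in cKO while Gfap had nearly the same mean in both groups, and neither difference passed the test over all genes. Vim was at 10.2, 8.23, 14.6 and 20.4 CPM in the controls, against 33.6, 26, 17.8 and 34.2 CPM in the cKO libraries. Thus 3 of 4 cKO libraries lay above every control, and cKO S5 lay between control S6 and control S7. The means were 13.4 CPM ± 5.40 and 27.9 CPM ± 7.67 (SD, n = 4 each), a 2.09-fold difference with a 95% interval of 1.29 to 3.36. On the log2 scale this was 1.06 with a standard error of 0.32. By edgeR's quasi-likelihood test the unadjusted p was 0.00541 and the adjusted p 0.25. Vim thus fell short of the threshold of 0.05 in adjusted p, and it ranked 318 by p among the 14757 genes tested.

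Gfap was at 165, 145, 257 and 289 CPM in the controls. The cKO libraries had 215, 171, 286 and 283 CPM. The groups overlapped over most of their range, and the highest library was control S7. The means were 214 CPM ± 69.6 and 239 CPM ± 55.9 (SD, n = 4 each). The fold difference was 1.12 with a 95% interval of 0.78 to 1.60, and the adjusted p from edgeR was 0.877. The interval leaves room for a modest change in either direction.

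**Figure D1:**
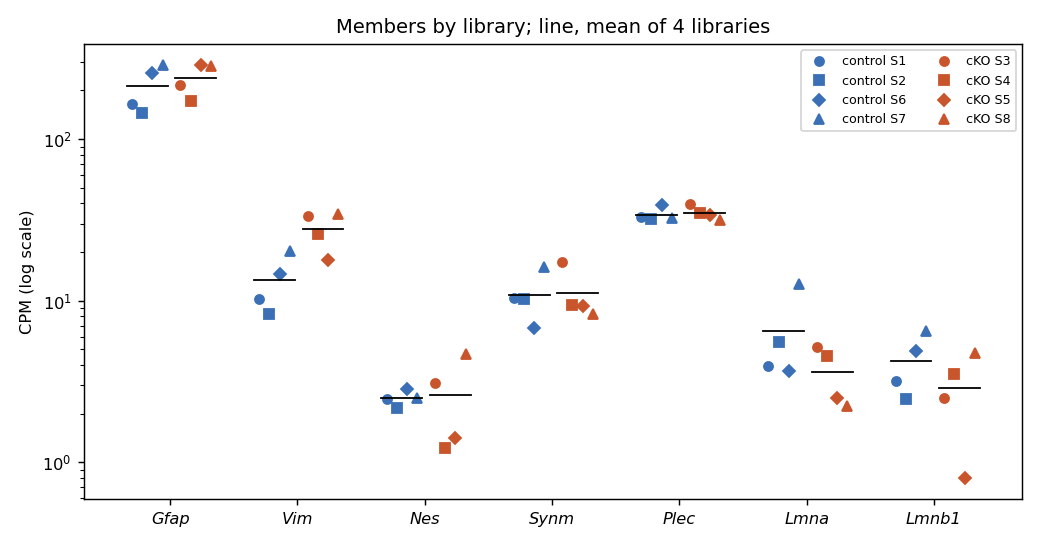
CPM of the 7 genes on a log axis in each control library (blue) and cKO library (orange); the symbol shape names the library and the horizontal line is the mean of 4 libraries. In Vim the cKO libraries S3, S4 and S8 lie above all controls while cKO S5, at 17.8 CPM, does not.

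The ratio of Vim to Gfap reads within a library does not depend on how that library is scaled, and it tests whether the 2 genes changed by the same factor. Per 100 Gfap reads there were 6.17, 5.66, 5.67 and 7.07 Vim reads in the controls. The cKO libraries had 15.6, 15.2, 6.24 and 12.1. The controls were tightly grouped, 3 cKO libraries were clearly above them, and cKO S5 fell inside the control range. The log2 ratio averaged −4.03 ± 0.15 for controls and −3.11 ± 0.62 for cKO (SD, n = 4 each), a difference of 0.92, or 1.89-fold. An exact 2-sided permutation test gave p = 0.0571, where the smallest p that 4 against 4 libraries allow is 0.0286. Without cKO S5 the difference was 1.21 and the exact permutation p was 0.0286, the smallest that 3 against 4 libraries allow. The remaining cKO libraries all lay above the controls. That p was therefore fixed by leaving this library out and is not a further test. With all 8 libraries, a difference between the Vim and the Gfap change was not shown at the threshold of 0.05.

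In the control libraries the 2 genes had the same order, lowest in S2, then S1, S6 and S7, and the ratio stayed near 6 reads per 100 while Gfap itself ranged from 145 to 289 CPM. In cKO the order differed. From the lowest up, Vim ran S5, S4, S3 and S8 (17.8, 26, 33.6 and 34.2 CPM). Gfap ran S4, S3, S8 and S5 (171, 215, 283 and 286 CPM). The 2 cKO libraries with the lowest Gfap, S3 and S4, had the 2 highest ratios, and Gfap is the denominator of that ratio. Over all 8 libraries the correlation of log2 CPM was weak, with Pearson r = 0.52 (exact permutation p = 0.177, adjusted p = 0.972 over the 21 pairs of the 7 genes) and Spearman rho = 0.48 (exact permutation p = 0.243). With each group's mean removed, r was 0.55 (exact permutation p = 0.219). The 2 libraries farthest from the Gfap median were control S1 and S2, and without them r was −0.32 (exact permutation p = 0.546), so the positive sign rests on those libraries. The CPM of both genes share each library's scaling.

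**Figure D2:**
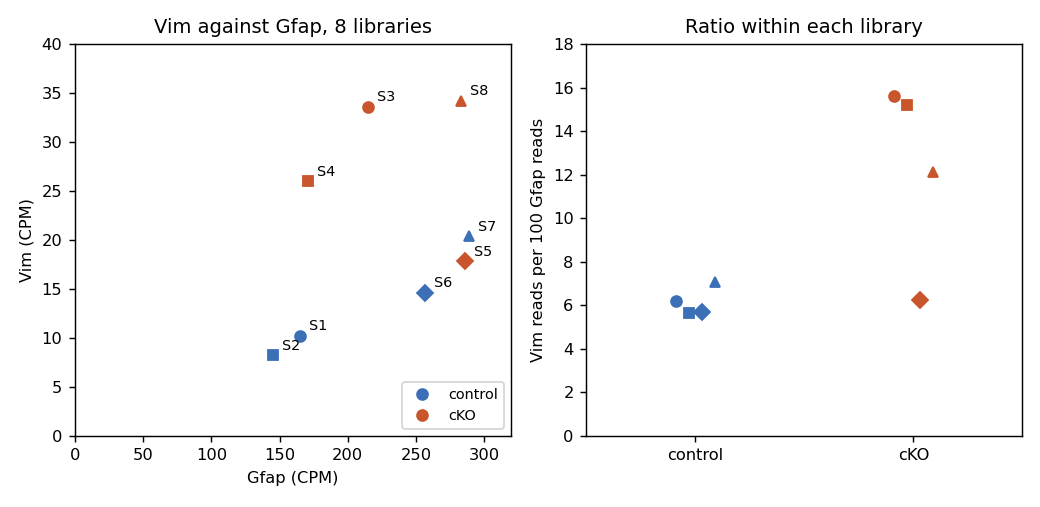
Left, Vim against Gfap in CPM for each of the 8 libraries (blue, control; orange, cKO; S numbers name the libraries). Right, Vim reads per 100 Gfap reads in each library: the controls sit between 5.66 and 7.07, cKO S5 is at 6.24, and the other 3 cKO libraries sit between 12.1 and 15.6.

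Vimentin is also made by microglia, endothelial cells, fibroblasts and ependymal cells, so markers of these cells are given beside it. Microglial markers (7 genes, of which Tmem119 and Aif1 were at 0 in at least 1 library) summed to 25, 25.3, 11.6 and 23.2 CPM in the controls. The cKO sums were 42.8, 22.9, 7.01 and 23.3 CPM. The cKO library with the lowest Vim, S5, had the lowest microglial sum. Controls S1 and S2, with the lowest Vim, had the highest microglial sums of their group. Fibroblast and meningeal markers (8 genes, with Col3a1, Lum, Dcn and Slc6a13 at 0 in at least 1 library) summed to 125 to 617 CPM in controls and 79.4 to 184 CPM in cKO. Endothelial markers (8 genes, none at 0 in any library) summed to 40.9 to 70.1 CPM in controls and 20.1 to 51.7 CPM in cKO. Ependymal markers (6 genes, with Ccdc153, Tmem212 and Pifo at 0 in at least 1 library) summed to 5.64 to 26.3 CPM and 8.65 to 25.9 CPM. The groups overlapped in all 4 lists, and the part of these cells in the Vim level was not tested.

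The genes of the large filament partners nestin and synemin differed between groups by less than the spread between libraries. Nes was at 2.47, 2.18, 2.86 and 2.51 CPM in the controls, against 3.12, 1.22, 1.42 and 4.71 CPM in the cKO libraries. The cKO libraries lay on both sides of the narrow control range, 2 above and 2 below it. These values rest on 25 to 110 reads per library. The means were 2.51 CPM ± 0.276 and 2.62 CPM ± 1.63 (SD, n = 4 each), and edgeR put the log2 fold change at 0.06 (standard error 0.59). The adjusted p from edgeR was 0.983, with a 95% interval of 0.433 to 2.53 for the fold difference, too wide to speak for or against a doubling. Nes did not accompany Vim in each library: cKO S4 had 26 CPM of Vim and the lowest Nes of all 8 libraries.

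Synm was at 10.4, 10.3, 6.81 and 16.2 CPM in the controls, against 17.4, 9.43, 9.29 and 8.3 CPM in the cKO libraries. One library in each group was high, control S7 and cKO S3. The estimate was 0.02 on the log2 scale (standard error 0.35, 95% interval −0.74 to 0.78), with an adjusted p of 0.991 by edgeR. The sign of this value turned in 8 of 17 alternative fits, as it did for Nes in 5, so neither gene has a direction here.

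Plec encodes plectin, the giant linker that joins intermediate filaments to other parts of the cytoskeleton and to membranes. It was the steadiest of the 7 genes in counts. Plec was at 33.1, 32.2, 38.9 and 32.3 CPM in the controls, against 39.6, 34.8, 34.1 and 31.8 CPM in the cKO libraries. The coefficient of variation was 9.39% in both groups, the lowest of the 7 genes in each of them. The log2 estimate was 0.04 (standard error 0.18), with a 95% interval of 0.784 to 1.35 for the fold difference and an adjusted p from edgeR of 0.967. In the deposited FPKM values Plec had a control mean of 7.05 ± 4.87 and a cKO mean of 3.64 ± 0.761 (SD, n = 4 each). That gave a log2 fold change of −0.72 on the log2(FPKM + 0.1) scale with an adjusted p of 0.763 by limma, so its sign depends on which of the deposited measures is used.

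The lamins had lower means in cKO, within the spread between libraries. Lmna, which gives lamins A and C, was at 3.93, 5.53, 3.68 and 12.7 CPM in the controls, against 5.16, 4.54, 2.51 and 2.23 CPM in the cKO libraries. Control S7 held more than double the level of the next library, and the other 3 controls overlapped with cKO. The means were 6.47 CPM ± 4.26 and 3.61 CPM ± 1.46 (SD, n = 4 each), a fold of 0.557 with a 95% interval of 0.257 to 1.2. On the log2 scale this was −0.84 (standard error 0.52), with an adjusted p from edgeR of 0.629, and it was −0.28 without control S7.

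Lmnb1, which gives lamin B1, the lamin present in nearly all nuclei, was at 3.17, 2.47, 4.89 and 6.54 CPM in the controls. The cKO libraries had 2.5, 3.54, 0.798 and 4.75 CPM. The lowest value rests on 14 reads in cKO S5, the library in which Vim was also lowest among the cKO libraries. The log2 estimate was −0.56 (standard error 0.59), with an adjusted p from edgeR of 0.808, and it was −0.24 without cKO S5 and −0.27 without control S7. Control S7, highest for both lamins, also had the highest summed markers of oligodendrocyte precursors (1361.5 CPM, against 504 to 881 in the other controls and 575 to 688 in cKO) and of oligodendrocytes (2881.2 CPM). Within cKO, S5 had the highest oligodendrocyte sum (2390.7 CPM) and the lowest Lmnb1. The lowest sum (975 CPM) was in cKO S8, which had the highest Lmnb1 of its group and the lowest Lmna. All 6 precursor and all 8 oligodendrocyte markers had counts in every library, and the part of these cells in the lamin levels was not tested.

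**Figure D3:**
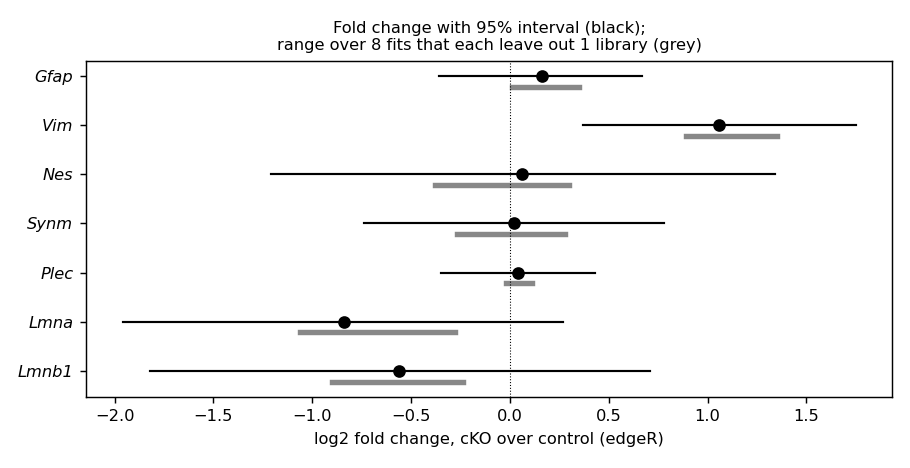
Log2 fold change of each gene, cKO over control, from edgeR (black point) with its 95% interval (black line), and the range over the 8 fits that each leave out 1 library (grey bar). Vim is the gene whose interval lies above 0, from 0.37 to 1.75, and the intervals of the other 6 genes span 0.

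Taking the 7 genes as a list, 0 passed the threshold of 0.05 in adjusted p by edgeR, where 0.318% of all genes tested did (47 of 14757, 30 higher and 17 lower in cKO). With library totals in place of TMM that split was 48 higher and 14 lower, with 0 of the 7 among them, and the median of all genes moved by 0.108 on the log2 scale. On that scaling the log2 fold change of Vim was 1.17 and that of Gfap 0.27, close to the main values once the shift is taken off. DESeq2 also called 0 of the 7, against 2.49% of all genes tested with it. At an unadjusted p under 0.05 by edgeR there was 1 of 7, Vim, against 9.81% of all genes. The groups did not overlap in 0 of the 7 genes, against 6.34% of all genes. The median log2 fold change was 0.04 over the 7 and −0.02 over all genes tested. In the authors' deposited table Vim had a log2 fold change of 0.88, an unadjusted p of 0.00155 and an adjusted p of 0.0529, and the other 6 genes had adjusted p of 0.476 to 0.993.

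Levels can be compared between genes only per length, and the deposited FPKM values are a measure of that kind. In controls Gfap was highest at 108 FPKM ± 34.2, followed by Vim at 17.8 FPKM ± 12.3 (SD, n = 4 each), and their ranges did not overlap. Plec at 7.05 ± 4.87 and Lmna at 7.05 ± 4.18 came next, then Lmnb1 at 2.41 ± 0.889, Synm at 1.91 ± 0.752 and Nes at 0.524 ± 0.0488 FPKM (SD, n = 4 each). The control ranges of Vim and Plec, of Plec and Lmna, and of Lmnb1 and Synm overlapped, while those of Lmna and Lmnb1 and of Synm and Nes did not. This order depends on the measure. In control counts Lmna averaged 6.47 CPM over 5838 exon bases and Lmnb1 4.27 CPM over 2962, which per base puts Lmnb1 higher. Gfap averaged 214 CPM over 4218 exon bases and Vim 13.4 CPM over 4743, a wider gap than in FPKM. In cKO Vim was at 41.9 FPKM ± 9.80, with a lowest value of 33.2 against a highest control value of 32.5, so on this measure the groups just failed to overlap. The log2(FPKM + 0.1) fold change of Vim was 1.49 with an adjusted p of 0.511 by limma.

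The 7 genes were set against each other in 21 pairs over the 8 libraries. The closest pair was Synm and Lmna, with Pearson r = 0.70 (exact permutation p = 0.0485, adjusted p = 0.972) and Spearman rho = 0.76 (exact permutation p = 0.0368, adjusted p = 0.772). Without control S7 and cKO S3, the 2 libraries farthest from the Synm median, r was 0.38 (exact permutation p = 0.46), so the relation rests on them. With group means removed, Vim and Lmnb1 had r = 0.86 (exact permutation p = 0.00868, adjusted p = 0.0911), and Synm and Lmna had r = 0.83 (exact permutation p = 0.00347, adjusted p = 0.0729). No pair passed after adjustment over the 21.

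Among 7775 genes with a mean of at least 10 CPM, those most like Gfap over the 8 libraries were Pcdha11 (Pearson r = 0.98), Mast2 (0.95), Dzip1 (0.95), Atp13a3 (0.94) and Cct6a (0.94). Those most like Vim were Rab36 (r = 0.97), Trim44 (0.93), Med13l (0.92), Zfp592 (0.91) and Dab2 (0.91). With r = 0.52 between Vim and Gfap, no gene could be this close to both, so the lack of a shared gene in the 2 sets adds nothing. Vim itself came 1086th in likeness to Gfap, and Gfap 693rd in likeness to Vim, both at r = 0.52. These coefficients describe 8 libraries that share their scaling, and the highest of 7775 were picked.

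Genes that build, anchor, modify or regulate the scaffold were examined in 9 lists. Of 108 listed genes 95 were tested, and 0 passed the threshold in either direction by edgeR. At an unadjusted p under 0.05 there were 10, 7 higher and 3 lower in cKO, which is 10.5% against 9.81% of all genes. The groups did not overlap in 6, or 6.32%, against 6.34% of all genes. Both shares are near the background, and the median log2 fold change over the lists was 0.07, with 54 genes above 0.

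The route by which cytokines induce Gfap runs from the gp130 receptor to STAT3, and a list of 21 genes held it together with BMP signalling, nuclear factor I and Sox9. In that list 2 genes had an unadjusted p under 0.05. Socs3, the feedback inhibitor that STAT3 induces, was at 1.77, 1.38, 0.494 and 1.37 CPM in the controls. The cKO libraries had 3.68, 4.17, 3.76 and 5.31 CPM, and the control values rest on 9 to 29 reads per library. The groups did not overlap, and edgeR estimated a log2 change of 1.75 (standard error 0.57), with an adjusted p of 0.292. Id3, a target of BMP signalling, was at 44, 44, 33.5 and 46.5 CPM in controls and at 68.1, 69.9, 60.7 and 64.8 CPM in cKO. These groups did not overlap either, with a log2 fold change of 0.65 and an adjusted p from edgeR of 0.174. Other genes of the list are named here after their values were seen. Il6ra had a log2 fold change of 1.58, with means of 1.26 CPM in controls and 3.81 CPM in cKO and overlapping groups. Tyk2 had 0.56 and did not overlap between groups, at 7.1 to 10.5 CPM in controls and 12 to 14.8 CPM in cKO. Their adjusted p from edgeR were 0.522 and 0.544. The genes named next changed less. Id1, also a target of BMP signalling, had a log2 fold change of 0.04. Bmpr1a, Bmpr1b, Smad1 and Smad5 had 0.06, −0.03, 0.02 and −0.04, and Il6st (gp130) and Stat3 had −0.20 and 0.29. Whether either route was more active was not tested. The most abundant genes of the list, Cntfr (the receptor of ciliary neurotrophic factor) and Nfia, had log2 fold changes of −0.07 and 0.20, and the list's median was 0.09.

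Among the other plakin and cytolinker genes (7 tested), Dst, the plectin relative dystonin, had a mean of 432 CPM ± 95.3 in controls and 624 CPM ± 74.1 in cKO (SD, n = 4 each). Its log2 fold change was 0.53 with an adjusted p from edgeR of 0.312, and the groups overlapped. Macf1, the most abundant plakin, averaged 1347.1 CPM ± 99.6 and 1483.6 CPM ± 122 (SD, n = 4 each) and had a log2 fold change of 0.14. The list's median was 0.31. Of the 13 attachment genes, through which synemin and plectin reach the membrane, Dmd (dystrophin) had a log2 fold change of 0.37 and did not overlap between groups, Dag1 (dystroglycan) had 0.42, and Dtna (dystrobrevin alpha) had 0.29. Their adjusted p from edgeR were 0.437, 0.414 and 0.577. Utrn and Itgb1, chosen after their values were seen, had unadjusted p of 0.0476 and 0.0463 by edgeR, with log2 fold changes of 0.46 and −0.45. Itgb1, which encodes integrin beta 1, also did not overlap between groups, at 131 to 153 CPM in controls and 62.9 to 124 CPM in cKO, and its adjusted p from edgeR was 0.501.

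Of the filament chaperone and turnover genes (10 tested), Trim32, a ubiquitin ligase, was at 18.8, 17, 14.1 and 14.9 CPM in controls and 22, 30.9, 23.4 and 24.7 CPM in cKO. These groups did not overlap, and the log2 fold change was 0.64 with an adjusted p from edgeR of 0.346. Hspb6, a small heat shock protein, had a log2 fold change of −0.88 and an adjusted p of 0.405 in the same edgeR test. Ubr4 and Capn2, the most abundant of this list, had log2 fold changes of 0.19 and −0.11. The kinase and phosphatase list (13 tested) had a median of 0.11, with Camk2d at 0.30, Pak1 at −0.62 and Ppp2ca at −0.23, and 0 of its genes had an unadjusted p under 0.05.

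Of the lamina partners (13 tested), Lmnb2, which gives lamin B2, was at 12.8, 5.6, 7.31 and 10.3 CPM in the controls. The cKO libraries had 4.24, 6.44, 4.5 and 1.93 CPM, so 3 of 4 cKO libraries lay below every control. The log2 estimate was −1.08 (standard error 0.44), with an unadjusted p of 0.0298 and an adjusted p from edgeR of 0.435. All 3 lamin genes thus had values below 0, −0.84 for Lmna, −0.56 for Lmnb1 and −1.08 for Lmnb2, and 0 of them passed the threshold. Banf1, Ankle2 and Tor1aip1 of the same list had −0.65, −0.21 and 0.18. The nuclear envelope linkers Sun2, Syne1 and Syne2 had log2 fold changes of −0.53, 0.00 and −0.58, with a median of −0.47 over the 5 tested. Of the 6 lamin processing genes, the protease Zmpste24 had a log2 fold change of 0.02, the methyltransferase Icmt −0.37, Fnta −0.20 and Narf 0.31.

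The other cytoplasmic filament genes are largely those of neurons, muscle and epithelia. Of 16 genes 7 were tested, with a median log2 fold change of −0.15. Nefl was at 13.2 CPM ± 3.31 in controls and 11.9 CPM ± 5.00 in cKO, and Nefm at 7.85 CPM ± 4.01 and 10.2 CPM ± 6.99 (SD, n = 4 each). Ina was at −0.93 and Nefh at −1.10 on the log2 scale, and edgeR gave adjusted p of 0.666 and 0.618 for them. Neuronal markers (9 genes, of which Chat was at 0 in at least 1 library) summed to 35.4 to 80.4 CPM in controls and 22.4 to 38.8 CPM in cKO, and their part in the neurofilament levels was not tested.

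**Figure D4:**
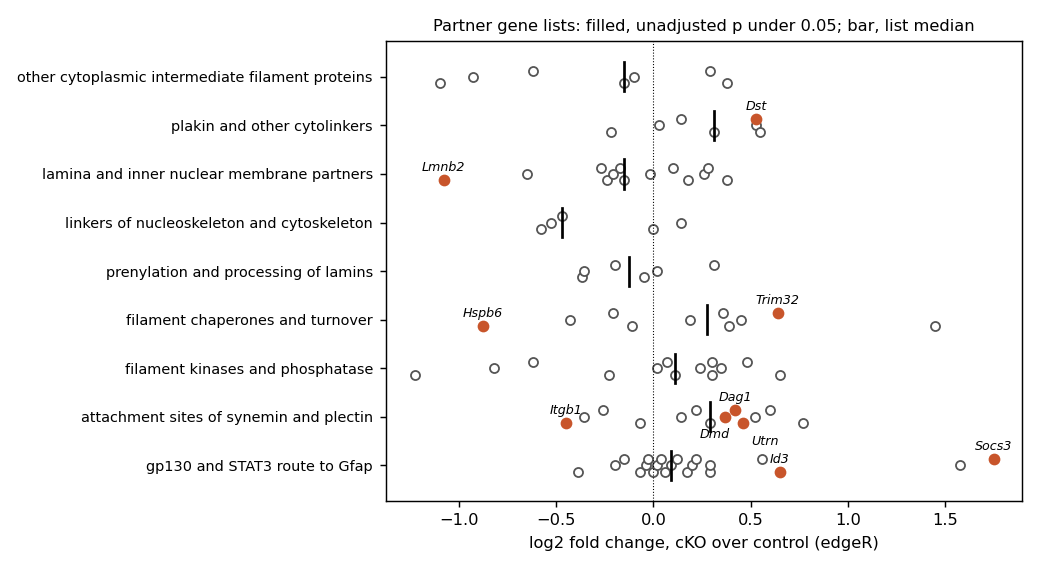
Log2 fold change, cKO over control, of the 95 tested genes of 9 partner lists; filled points have an unadjusted p under 0.05 in edgeR and carry their symbol, and the vertical bar is the list median. The 10 filled points are 10.5% of the genes shown, against 9.81% of all genes tested.

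Gfap (ENSMUSG00000020932) lies on chromosome 11 from 102887336 to 102900912 on the minus strand, and Vim (ENSMUSG00000026728) on chromosome 2 from 13573927 to 13582826 on the plus strand, by GENCODE mouse release 21 on GRCm38. Nes (ENSMUSG00000004891) lies on chromosome 3 from 87971078 to 87980451, and Lmna (ENSMUSG00000028063) on the same chromosome from 88480147 to 88509956. Synm (ENSMUSG00000030554) lies on chromosome 7 from 67730160 to 67759742, Plec (ENSMUSG00000022565) on chromosome 15 from 76170974 to 76232574 and Lmnb1 (ENSMUSG00000024590) on chromosome 18 from 56707813 to 56753424. Exons of Synm share 84 bases with Ttc23, and exons of Plec 205 bases with Parp10, which is 1.06% and 1.13% of their exon length. Ttc23 lies on the other strand from Synm, and strand use in counting is not given in the sources used here. Parp10 lies on the same strand as Plec, so strand could not separate their reads. Reads in both stretches therefore cannot be assigned with certainty. The other 5 genes share no exonic base with another counted gene.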

How the data were processed

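RNA of 8 libraries of sorted astrocytes was analysed from the deposited tables. The authors deposited raw counts per gene for each library, and per the submitters' processing notes the tools include TopHat2 2.0.11, Bowtie2 2.2.3 and HTSeq 0.6.1p1 with GRCm38. Summary lines that name no gene, 56.4% to 61.7% of reads, were left out. The authors also deposited FPKM (Cufflinks 2.2.1 and Cuffnorm are in the notes). Only 3 of 8 FPKM columns followed the counts of the library they name, over 11658 genes, and all 8 followed a library of their group, so FPKM was used by group. In the authors' deposited DESeq2 comparison, per the file headers, group means of scaled counts are a signal, with a log2 fold change, its error and Wald statistic (scores) and p-values.

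Groups came from sample titles. Counts were fitted with edgeR 4.0.16 (quasi-likelihood, TMM, filterByExpr, Benjamini-Hochberg over 14757 genes, threshold 0.05) in R 4.3.3, and the scripts were tested on simulated data. Nothing beyond the term biological replicates ties a library to an animal, so p-values measure the spread between libraries. Ratios used counts + 0.5, correlations log2(CPM + 0.5), both in Python 3.11.15. Intervals are 95%. The alternatives were RLE factors, library totals, DESeq2 1.42.0, limma 3.58.1 (voom, and log2 FPKM + 1 or + 0.1 with a mean of at least 0.1), filters of at least 1 count in any or 10 in every library, Xist as a covariate, and each library left out.

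Named were the 7 genes, Kcnj10, per list the genes past the threshold (up to 8), the 2 most abundant and the 2 with the lowest p, and the 5 genes most like Gfap and Vim with a mean of at least 10 CPM. Members and lists were chosen with earlier results of these data known.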

Additional observations from a re-analysis of the deposited data

Results flagged for a closer look

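Among 16 sets of 4 libraries examined (7 genes and the Vim to Gfap ratio in each group), 2 had 1 library far from the other 3, where chance alone gives about 0.8. Synm was at 17.4 CPM in cKO S3 against 8.3 to 9.43 CPM in the other cKO libraries, and without cKO S3 its log2 fold change was −0.27. Plec was at 38.9 CPM in control S6 against 32.2 to 33.1 CPM in the other controls, and without control S6 its log2 fold change was 0.11. Neither gene passed the threshold with or without that library.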

How the results depend on the processing

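In all 17 alternative fits 0 of the 7 genes passed the threshold, Vim kept log2 fold changes from 0.89 to 1.49 (adjusted p 0.057, with DESeq2, to 0.558), Gfap from 0.01 to 0.35, Lmna from −1.21 to −0.28 and Lmnb1 from −0.90 to −0.18. Leaving out 1 library gave 0.89 to 1.35 for Vim and 0.01 to 0.35 for Gfap. Signs turned for genes near 0. Nes had −0.13 with limma-voom, −0.02 and −0.14 with FPKM + 1 and FPKM + 0.1, and −0.38 to 0.30 with 1 library left out. Synm had −0.01 with limma-voom, −0.08 with Xist, −0.05 and −0.07 with FPKM, and −0.27 to 0.28 with 1 library left out. Plec had −0.62 and −0.72 with FPKM and −0.02 to 0.11 with 1 library left out. The cause of these turns was not tested. The Vim to Gfap difference was 0.90 with 5 counts added (exact p 0.0857), 1.29 from FPKM (exact p 0.0571) and 0.77 to 1.21 with 1 library left out. Its exact p was under 0.05 only without cKO S5, the cKO library inside the control range, where that p was fixed at its smallest value. The correlation of Vim and Gfap was 0.25 to 0.69 with 1 library left out and −0.32 without the 2 libraries farthest from the Gfap median. Over all genes 47 passed, against 384 with DESeq2, 87 and 84 with the filters of 1 count in any and 10 counts in every library, 28 with Xist, 7 and 11 with FPKM + 1 and FPKM + 0.1 by limma, and 4 to 45 with 1 library left out (4 without cKO S4, 14 without control S2, 16 without control S6, 24 without cKO S5, 28 without cKO S8 and 30 without control S1). The lowest read numbers in a library were 25 for Nes, 44 for Lmna and 14 for Lmnb1, and the part of read number in their spread was not tested. No paired analysis was possible because the sample labels give no pairing of control and cKO libraries.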

Other observations

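Desmoplakin (Dsp), the plakin of desmosomes, had 0 reads in all 4 control libraries and 1, 3, 8 and 50 reads in cKO S3, S4, S5 and S8, and it was too low to be tested. Dsp, like Aurkb, Cdk1 and Plk1, was picked with its values in view. Aurkb and Cdk1, mitotic kinases of the filament list that phosphorylate vimentin in dividing cells, were each high in 1 control library. Aurkb was at 8.72 CPM in control S7 and Cdk1 at 5.71 CPM in control S6. The other controls had at most 1.54 CPM of Aurkb and 0.634 CPM of Cdk1. In cKO they were at 2.2 and 2.74 CPM or less. Plk1, another mitotic kinase of that list, had a higher mean in cKO, 1.81 CPM against 1.15 CPM in controls. Its log2 fold change was 0.65 with an adjusted p from edgeR of 0.848.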
